A study of Mus musculus with 22 samples.

Results

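Among accessible regions that could be matched 1 to 1 between control and gTKO retinal endothelial cells, 6539 were called at least 1.5 times as wide in the control list as in the gTKO list. They are called narrowed pairs here. A pair is a control peak that overlaps exactly 1 gTKO peak, which in turn overlaps no other control peak, on chromosomes 1 to 19 and X of the mm9 build. Of 57261 control and 49550 gTKO peaks there, 37872 formed such pairs, and 37404 of these had a control width under 2000 bp, the second condition. The narrowed pairs were 17.5% of these eligible pairs (95% interval 17.1 to 17.9%), 11.4% of control peaks and 13.2% of gTKO peaks. The pairs were chosen by the widths in both lists, so their widths and ratios are a description and not a finding. Read depth is unknown for both lists, and its part in any width was not tested.

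The cells were sorted from retinas of C57BL/6 pups at postnatal day 6, although the cell type label also calls them adult. Control pups were S1pr3-/- with S1pr1 flox/flox and S1pr2 flox/flox alleles. gTKO pups carried the same alleles plus Rosa26-CreERT2, a recombinase active in all cell types once tamoxifen is given, so deletion was not limited to endothelium. Both genotypes lacked S1pr3 and received 100 µg tamoxifen by injection from postnatal day 1 to 3. Each replicate pooled retinas of 4 to 6 pups, and 5000 to 8000 sorted cells entered each ATAC-seq reaction. Both genotypes had 3 libraries but are represented by a single peak list each, so nothing below has a replicate error. Whether the sorted cells carried endothelial marker peaks was not examined, since no mm9 annotation was used here.

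The products of the S1pr genes are cell-surface receptors that signal through G proteins and bind sphingosine 1-phosphate, a plasma lipid that acts on endothelial junctions and vessel growth. The title of the series names AP-1, a family of DNA-binding factors built from Jun and Fos proteins, beside these receptors. In ATAC-seq the Tn5 transposase inserts adapters where DNA is not covered by nucleosomes, so active promoters and enhancers appear as peaks. The width of a peak is the stretch over which insertions exceed a calling threshold. A shorter open stretch and a lower signal over the same stretch cannot be told apart from peak positions alone.

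The control width of the narrowed pairs had a median of 493 bp (quartiles 366 and 691 bp) and their gTKO width a median of 242 bp (quartiles 180 and 358.5 bp). The median ratio was 1.79, with quartiles at 1.61 and 2.13, and the median difference was 231 bp. Most members had a ratio under 2, with 1432 pairs under a ratio of 1.6 and 2967 from 1.6 to under 2. A further 1763 lay from 2 to under 3, 348 from 3 to under 5 and 29 at 5 or more. In gTKO cells, 269 of the regions were called at 150 bp, the smallest width in either list, and control regions under 225 bp could not become members for that reason. Together the narrowed pairs covered 3.68 Mb in the control list and 1.94 Mb in the gTKO list. Of the net difference over all eligible pairs, 3.62 Mb, the narrowed pairs held 1.74 Mb and pairs of similar width 2.05 Mb, while mirrored pairs held -0.18 Mb. These amounts follow from the choice by width.

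The same rule turned round, with the gTKO peak at least 1.5 times as wide and under 2000 bp, found 965 mirrored pairs, 2.57% of the 37612 pairs it could be applied to. Narrowed pairs were thus 6.78 times as numerous as mirrored ones. Both counts moved with the general width difference between the lists. The median ratio over all 1-to-1 pairs was 1.16, or 0.21 on the log2 scale. When every ratio was divided by that median, 3700 pairs were narrowed and 1931 mirrored, and the narrowed share of both groups together was 65.7% in place of 87.1%. There were then 1.92 narrowed pairs per mirrored pair. The mirrored pairs were smaller, at a median of 197 bp for the control peak and 374 bp for the gTKO peak.

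**Figure D1:**
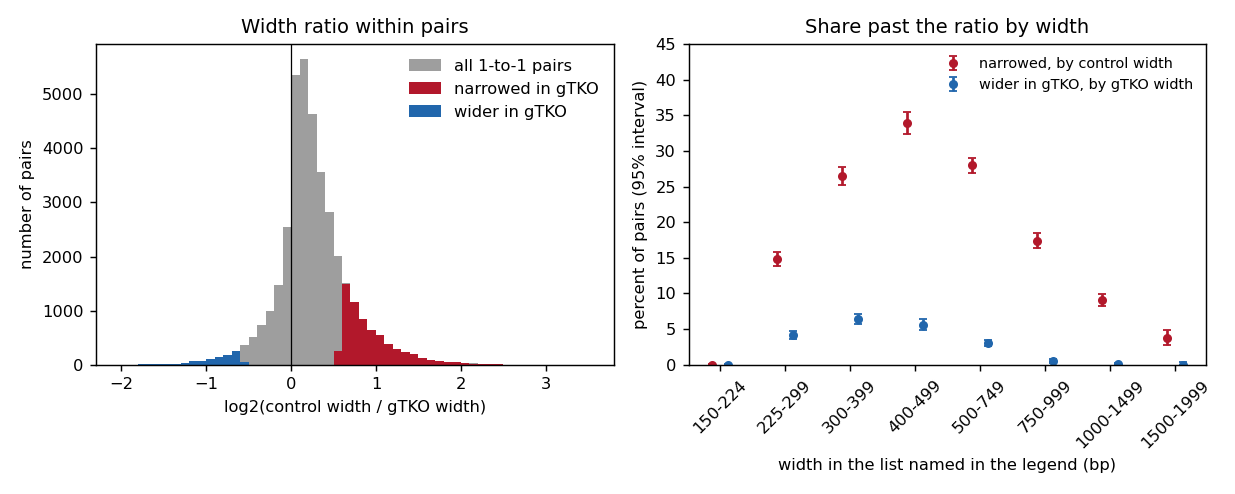
Left, number of 1-to-1 pairs by the log2 ratio of control to gTKO width, with narrowed pairs in red and pairs wider in gTKO in blue. Right, the share of pairs past the ratio of 1.5 by width class, with exact 95% intervals; the narrowed share was highest, at 33.9%, for control regions of 400 to 499 bp.

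The share of narrowed pairs is given here by control width, which the rule used, as a description. Narrowed pairs made up 14.9% of eligible pairs with control widths of 225 to 299 bp and 26.4% of those of 300 to 399 bp. The share peaked at 33.9% for 400 to 499 bp (1258 of 3713 pairs, 95% interval 32.4 to 35.4%). It was then 28% for 500 to 749 bp, 17.4% for 750 to 999 bp and 9.05% for 1000 to 1499 bp. Among control regions of 1500 to 1999 bp, 51 of 1377 were narrowed (3.7%, 95% interval 2.77 to 4.84%). The rule shapes both ends, because a control region near 225 bp passes only if its partner has the smallest width, and a wide one only if many more bases differ. The mirrored pairs, classed by their gTKO width, peaked at 6.39% for 300 to 399 bp and numbered 2 of 3359 for 1000 to 1499 bp. In every class from 225 bp up, the interval of the narrowed share lay above that of the mirrored share.

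In most narrowed pairs the gTKO peak lay inside the control peak, with both edges moved inward. The rule bounds where the edges can lie but does not fix the side on which the widths differ, so the shares that follow are a description. Bases of the control peak outside the gTKO peak are called trimmed. Where a gTKO edge reaches beyond the control peak, its trim counts as negative in the medians and in the ranking by trimmed bases. The shares by side leave such an edge out of the trimmed bases. The gTKO peak was contained in 5990 of 6539 pairs (91.6%, 95% interval 90.9 to 92.3%), and in 549 pairs (8.40%) 1 of its edges reached beyond the control peak. In mirrored pairs the control peak was contained in 87.6%, and in pairs of similar width with the control peak wider the gTKO peak was contained in 74.8%. Both edges were trimmed by more than 20 bp in 4972 narrowed pairs (76.0%), and 1 edge lay within 20 bp in 1368 (20.9%). Both edges differed by more than 20 bp in 69.4% of mirrored pairs and 39.4% of pairs of similar width with the control peak wider. The width difference was at least 75 bp in narrowed pairs, while its median was 52 bp over all pairs of similar width. A small difference leaves less room for both edges to differ by more than 20 bp, and its part in these shares was not tested. The median trim was 105 bp at the start and 105 bp at the end of the region. The larger trim fell at the start in 3244 pairs, at the end in 3277 and was equal in 18, so neither direction along the chromosome prevailed.

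Trimming was nonetheless uneven within many single regions. One side held at least 75% of the trimmed bases in 3429 pairs (52.4%) and at least 90% in 1563 pairs (23.9%, 95% interval 22.9 to 25.0%). All trimmed bases were on a single side in 628 pairs (9.60%), whereas the larger side held under 60% in 1255 pairs (19.2%). Mirrored pairs, in which the extra bases belong to gTKO, had 1 side with at least 90% in 26.8% (24.1 to 29.8%), an interval that overlapped that of the narrowed pairs. In pairs of similar width with the control peak wider, that share was 39.9%. It exceeded that of narrowed pairs in every width class from 225 bp up, at 52.6% against 25.2% for 225 to 299 bp. At 1000 to 1999 bp the shares were 25.0% (23.9 to 26.2%) and 14.1% (11.2 to 17.5%). Pairs of similar width have ratios under 1.5 by definition, and the part of that limit in these shares was not tested.

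The gTKO peak covered the middle of the control peak more often than its ends, as a contained peak must where the ratio is under 2. At 47.5% of the control width, the gTKO peak covered 86.6% of narrowed pairs, against 99.6% of pairs of similar width. At 22.5% of the width it covered 51.3% of narrowed pairs, and at 2.5% of the width 8.46%. The centre of the gTKO peak was displaced from that of the control peak by a median of 11.7% of the control width (quartiles 5.73 and 18.2%). The room for such a shift is set by the ratio. The signed displacement had a median of -0.11%, so shifts towards the start and the end balanced.

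**Figure D2:**
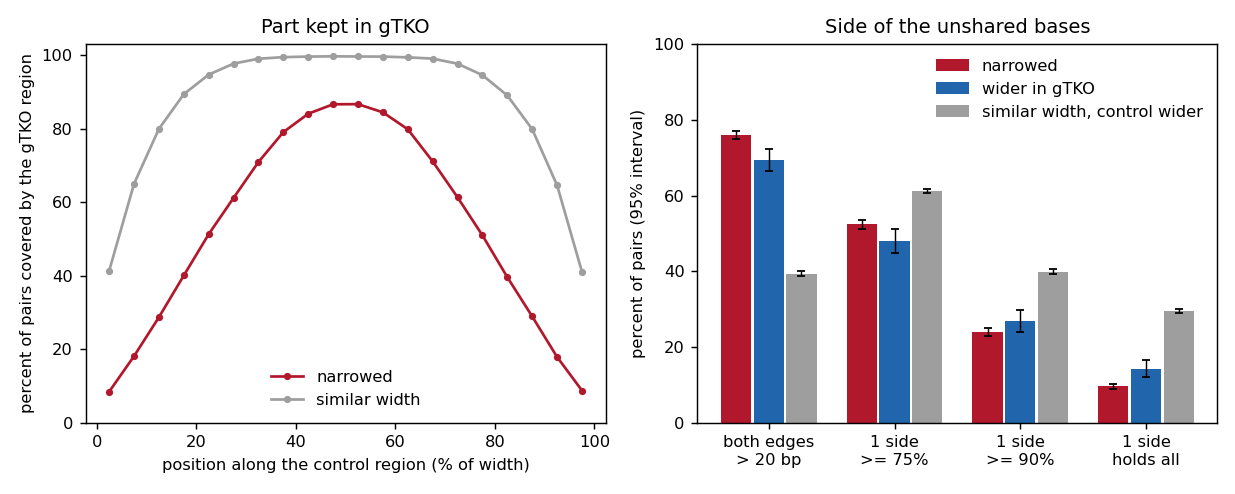
Left, percent of pairs in which the gTKO peak covers each of 20 positions along the control peak, for narrowed pairs and pairs of similar width. Right, percent of pairs by the side that holds the unshared bases, with exact 95% intervals; both edges moved by more than 20 bp in 76.0% of narrowed pairs.

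The pairs named next illustrate the extremes of the rule. The largest ratio was on chromosome 8, where the control peak from 11797035 to 11798855 (1821 bp) met a gTKO peak of 165 bp from 11797520 to 11797684. It also had the most trimmed bases, 485 at the start and 1171 at the end, and a ratio of 11. On chromosome 11 the control peak from 106623076 to 106624671 (1596 bp) met 155 bp in gTKO, a ratio of 10.3, and its next control peak was 30 bp away. The pair on chromosome 12 from 17563617 to 17565109 fell from 1493 to 167 bp almost wholly at its end, with 57 bases trimmed at the start and 1269 at the end. In all 3 the gTKO peak was near the smallest width that the list holds.

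The next 4 pairs had ratios above 8. The control peak on chromosome 15 from 89378542 to 89379852 (1311 bp) was matched by 152 bp in gTKO. On chromosome 8 from 73227706 to 73229184 the control width was 1479 bp and the ratio 8.60. A control peak of 1285 bp on chromosome 13 from 6607254 to 6608538 was matched by exactly 150 bp. On chromosome 3 from 145307468 to 145308746 the gTKO peak of 156 bp sat at the far end of the 1279 bp control peak and reached 17 bp beyond it. The rest of the leading 10 were on chromosome 17 from 45681516 to 45682910 (1395 and 183 bp), chromosome 1 from 193770082 to 193771056 (ratio 6.29, 155 bp in gTKO) and chromosome 6 from 125098147 to 125099517 (1371 and 219 bp). Of these 10 pairs, 7 had another control peak within 1 kb. That share was 36.1% over all narrowed pairs and 45.2% over those with control widths of 1000 to 1999 bp.

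Ranking by trimmed bases shared 7 of its 10 pairs with the ranking by ratio. The 3 it added kept larger gTKO peaks. They were on chromosome 18 from 62109604 to 62111222 (1619 and 281 bp), chromosome 8 from 124395691 to 124397340 (1650 and 394 bp) and chromosome 8 from 86731562 to 86733257 (1696 and 441 bp). Chromosome 8 thus held 4 of the 10 pairs with the most trimmed bases, and 388 of all 6539 narrowed pairs. Its narrowed share was 16.9%, against 17.5% over all eligible pairs. The widest member, on chromosome 6 from 108162101 to 108164003, went from 1903 to 968 bp. The next widest, on chromosome 8 from 87369639 to 87371540, went from 1902 to 1249 bp.

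At the other end, the smallest members were 225 bp control peaks with 150 bp partners. One lay on chromosome 17 from 9164983 to 9165207 and the other on chromosome 2 from 165337042 to 165337266, where the gTKO peak started 123 bp before the control peak. The limit of 1.5 itself ran through a dense part of the distribution, and 29 members had exactly that ratio. The first of them in chromosome order were on chromosome 1, with widths of 609 and 406 bp from 36327251, 246 and 164 bp from 72924464, and 309 and 206 bp from 190830158. The closest pairs outside the limit were on chromosome 17 from 51951857 (1213 and 809 bp), chromosome 11 from 98571639 (958 and 639 bp) and chromosome 13 from 48973510 (910 and 607 bp), with ratios just under the limit.

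Narrowed pairs had other control peaks nearby more often than pairs of similar width, and the shares differed most for control widths of 1000 to 1999 bp. The pairing itself uses other peaks, since a gTKO peak that reaches a second control peak drops its pair, and a wide gTKO peak can do so more readily than a narrow one. Part of the contrast at short distance is therefore built into the rule. Shares are given within classes of control width. Another control peak lay within 1 kb of 36.1% of narrowed pairs (2363 of 6539, 95% interval 35 to 37.3%). The share was 28.1% (27.6 to 28.7%) among 24665 pairs of similar width with control widths from 225 bp. For control widths of 1000 to 1999 bp the shares were 45.2% (40.7 to 49.7%) and 26.7% (25.6 to 27.9%). From 500 to 999 bp they were 37.3% and 27.3%, and from 300 to 499 bp 34.2% and 29.8%, in both classes with intervals that did not overlap. In the class of 225 to 299 bp they were 32.7% (29.4 to 36.2%) and 29.4% (28.1 to 30.8%), and the intervals overlapped. The median distance to the nearest other control peak was 2.4 kb for narrowed pairs and 3.94 kb for pairs of similar width.

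Pairs with no other control peak within 1 kb, a set added after seeing the data, are farther from the reach of a bridging peak. Among them, another control peak lay within 5 kb of 43.0% of 4176 narrowed pairs (41.5 to 44.5%) and 37.1% of 17730 pairs of similar width (36.4 to 37.8%). At control widths of 1000 to 1999 bp these shares were 48.5% (42.5 to 54.6%) and 31.0% (29.6 to 32.4%). At 300 to 499 bp they were 41.7% (39.3 to 44.1%) and 40.8% (39.3 to 42.3%), and the intervals overlapped.

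Peaks near narrowed pairs were also more often absent from the gTKO list. A control peak with no gTKO partner, called control-only, lay within 5 kb of 2045 narrowed pairs (31.3%, 95% interval 30.2 to 32.4%) and of 22.4% (21.8 to 22.9%) of pairs of similar width. The difference was present in all 4 width classes without overlap of the intervals, from 28.6% against 23.1% at 300 to 499 bp up to 44.2% against 23.1% at 1000 to 1999 bp. With no other control peak within 1 kb, the shares over all widths were 15.8% (14.7 to 16.9%) and 11.5% (11 to 11.9%), and at 300 to 499 bp 15.1% (13.4 to 16.9%) and 13.0% (12.0 to 14.1%), where the intervals overlapped. Among the control peaks next to a narrowed pair and within 5 kb, 32.2% had no gTKO partner (1853 of 5755, 31.0 to 33.4%). Next to pairs of similar width this was 26.6% (26 to 27.3%). Adjacent peaks that were split into 2 or more gTKO peaks made up 6.50% and 5.27%. The gTKO list held fewer peaks in all, 49550 against 57261, and the part of that difference in these shares was not tested.

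In the gTKO list the shares differed less. Distances there were measured from the edges of the gTKO peak, which the rule makes narrower in narrowed pairs. That lengthens their distances, and its part in the smaller contrast was not tested. Another gTKO peak within 1 kb was found for 25.2% of narrowed pairs and 24.8% of pairs of similar width at control widths of 225 to 299 bp, and for 24.4% and 24.6% at 300 to 499 bp. From 500 to 999 bp these shares were 24.1% (22.5 to 25.7%) and 20.7% (19.9 to 21.6%), and from 1000 to 1999 bp 22.2% (18.6 to 26.1%) and 17.9% (16.9 to 18.9%), where the intervals overlapped. Mirrored pairs gave a comparison from the other side, counted in the gTKO list by gTKO width. At 225 to 999 bp, 26.8% of mirrored pairs (24 to 29.7%) had another gTKO peak within 1 kb, against 22.3% (21.7 to 22.9%) of pairs of similar width. Within single width classes the intervals of these 2 sets overlapped, and at 500 to 999 bp both shares were 20%.

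The side of the larger trim was close to evenly split with respect to the nearest neighbour. Among narrowed pairs with a control peak within 1 kb, the larger trim faced it in 53.1% of 2356 cases (51.0 to 55.1%). Pairs of similar width with the control peak wider gave 51.4% (50.2 to 52.6%), an interval that overlapped. With neighbours up to 5 kb away the share in narrowed pairs was 51.4% (49.8 to 52.9%).

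**Figure D3:**
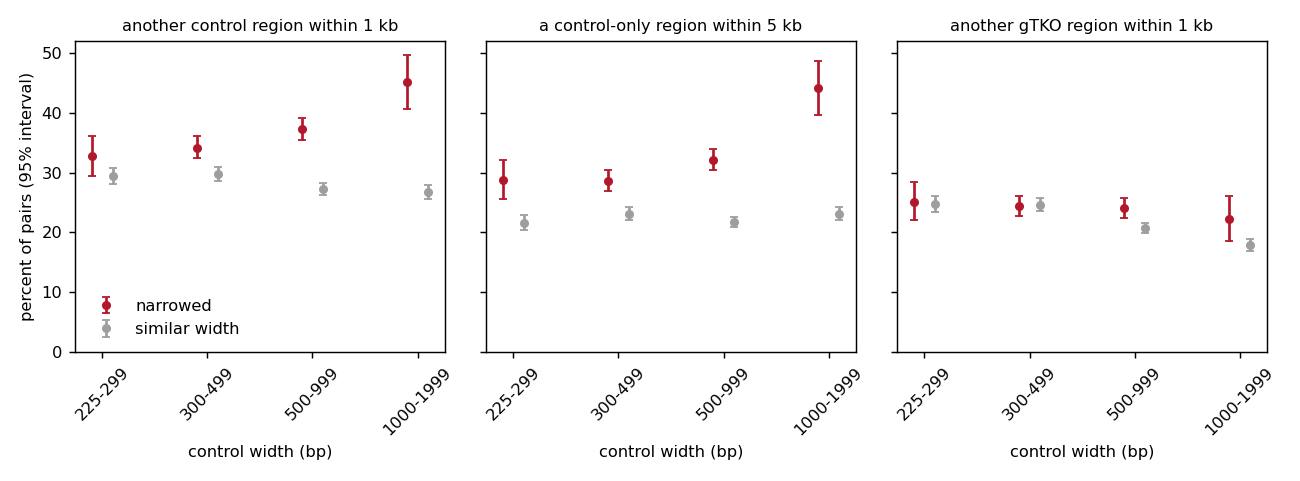
Percent of narrowed pairs (red) and pairs of similar width (grey) with another control peak within 1 kb, a control-only peak within 5 kb or another gTKO peak within 1 kb, by control width, with exact 95% intervals. In the widest class a control-only peak was near 44.2% of narrowed pairs and 23.1% of pairs of similar width.

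Narrowed pairs followed each other along the chromosomes more often than their overall share. After a narrowed pair, the next eligible pair within 2 kb was narrowed in 346 of 1263 cases (27.4%, 95% interval 25.0 to 29.9%). After a pair that was not narrowed this was 18.4% (17.4 to 19.6%). Restricted to control widths of 300 to 999 bp, a choice made after seeing the data, the values were 35.8% (32.2 to 39.6%) and 27.1% (24.8 to 29.4%). Within 50 kb they were 23.0% and 17.2% over all eligible pairs. Runs of narrowed pairs that were consecutive among eligible pairs were mostly short. Of 5113 runs, single pairs included, 1056 had 2 or more members, 67 had 4 or more and 8 had 6 or more.

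The longest run held 11 narrowed pairs within 16.3 kb of chromosome 8, from 126104765 to 126121086. Ratios within it ranged from 1.57 to 2.67, and control widths from 381 to 1217 bp. This stretch had 16 control peaks covering 10007 bp and 12 gTKO peaks covering 5108 bp. No control peak there was split into several gTKO peaks, 5 control peaks were control-only and 1 gTKO peak had no control partner. The side of the larger trim differed between its members. The sixth pair, from 126113247 to 126113848, was trimmed by 303 bp at its start and 41 bp at its end, while the ninth, from 126116617 to 126117833, was trimmed by 72 bp at its start and 415 bp at its end.

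A second run on chromosome 8, from 124356525 to 124398434, held 7 narrowed pairs in 41.9 kb. It was a stretch in which most control peaks were missing from gTKO, with 23 control-only peaks among 31, and 9 gTKO peaks covering 2634 bp against 13599 bp in the control list. The pair of 1650 and 394 bp named above was its sixth member. On chromosome 4, a run of 9 narrowed pairs from 41924756 to 42270517 spanned 345.8 kb, and 8 of them lie in the window described next.

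By 1 Mb window the narrowed share had a median of 16.7% (quartiles 10.0 and 23.0%) over 1277 windows with at least 10 eligible pairs, and 74 windows had none. In 9 windows the share was 50% or more, and these held 79 members, 1.21% of all. Adjacent windows of chromosome 2, the first beginning at 175 Mb, had 10 of 15 (66.7%) and 9 of 13 pairs narrowed (69.2%, 95% interval 38.6 to 90.9%), the latter being the highest share. On chromosome 4 between 42 and 43 Mb, 22 of 33 pairs were narrowed (66.7%, 48.2 to 82.0%), level with the lower of these. The next windows were smaller, with 6 of 10 on chromosome 2 between 145 and 146 Mb and on chromosome 5 between 22 and 23 Mb, and 7 of 12 on chromosome 6 between 42 and 43 Mb. By contrast, 0 of 25 pairs were narrowed on chromosome 14 between 65 and 66 Mb and on chromosome 18 between 34 and 35 Mb, where the exact interval reached 13.7%.

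The adjacent windows on chromosome 2 showed a regular layout, which was noticed only after the values were seen. Of the 27 gaps between successive pairs of these 2 windows, 8 measured between 33.8 and 33.9 kb. In the 8 couples of regions set apart by this gap, the first region was trimmed more at its start in 7, and the second was trimmed more at its end in all 8. The start trims of the first regions ran from 61 to 232 bp and their end trims from 16 to 87 bp. In the second regions the start trims ran from 3 to 44 bp and the end trims from 25 to 213 bp. For example, the control peak from 175260975 to 175261451 (477 bp, 217 bp in gTKO) was trimmed by 232 bp at its start and 28 bp at its end. Its partner 33.9 kb further on, from 175295333 to 175295752 (420 bp, 209 bp in gTKO), was trimmed by 5 bp at its start and 206 bp at its end. In 7 of the 8 couples, both larger trims were thus on the sides that faced away from each other. Of these couples, 5 first and 7 second regions passed the ratio. There was 1 control-only peak among the 29 control peaks of both windows.

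**Figure D4:**
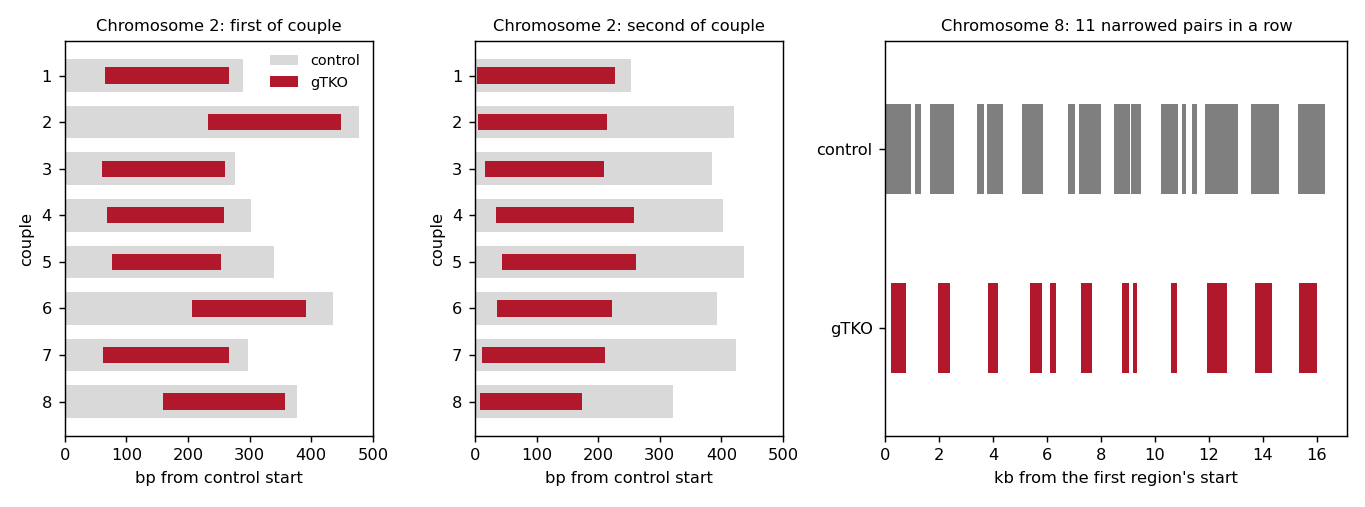
Left and middle, control peaks (grey) and gTKO peaks (red) of the 8 couples on chromosome 2, in bp from each control start; first regions were trimmed mainly at the start and second regions at the end. Right, all 16 control and 12 gTKO peaks of the run of 11 narrowed pairs on chromosome 8, in kb from its first start.

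Recurring distances were also found in the chromosome 4 window. Of its 32 gaps of at least 10 kb between neighbouring control peaks, 21 (65.6%) matched another gap of the window to within 100 bp, the highest share of 1428 windows with at least 8 such gaps. The chromosome 2 windows were the third and the eighth, with 7 of 16 and 5 of 13. Over all windows the median was 0% and the 95th percentile 23.1%. More gaps give more ways to match, and the window in second place, on chromosome 17 between 29 and 30 Mb, had 12 of 53 pairs narrowed. The chromosome 4 window had 5 members with control widths of 1040 to 1120 bp, a range that leaves out a wider member of 1256 bp. In order of position the 5 measured 1102, 1095, 1040, 1064 and 1120 bp, with gTKO partners of 536, 585, 547, 534 and 589 bp. Their nearest control peaks were 15.2, 4.05, 15.3, 15.3 and 15.9 kb away, so the distance was alike in some and not in all. Whether these windows hold repeated copies of one sequence was not tested, as no mm9 sequence was used here. Leaving out the 3 windows on chromosomes 2 and 4 changed the number of narrowed pairs from 6539 to 6498.

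Chromosome X had the highest narrowed share of the 20 chromosomes, 22.7% (181 of 797 pairs, 95% interval 19.8 to 25.8%), against 17.4% (17.0 to 17.8%) on chromosomes 1 to 19 together. With the narrowed shares of all chromosomes applied to its own mix of control widths, X would have had 18.4%. Within width classes, X exceeded the autosomes at 300 to 499 bp, with 42.2% (34.9 to 49.8%) against 29.4% (28.4 to 30.4%). In the other 3 classes the intervals overlapped, at 14.7% and 14.9% for 225 to 299 bp, 25.3% and 23.7% for 500 to 999 bp and 13.9% and 7.78% for 1000 to 1999 bp. Chromosome X also had the highest median ratio over eligible pairs, 1.21, and 12.9 narrowed pairs per mirrored pair. The intervals of 12 autosomes lay wholly below that of X. The sexes of the pooled pups were not part of the data used here.

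Among autosomes, chromosome 13 was lowest at 15.0% (13.3 to 16.9%) and chromosome 15 highest at 19% (17.1 to 21.1%). The share given by the width classes lay inside the interval for 17 of 20 chromosomes. Chromosomes 13 and 3 fell below it, with 15.0% against 18% and 15.8% against 17.9%, and X lay above it. The number of narrowed pairs per mirrored pair ran from 4.24 on chromosome 18 to 11.2 on chromosome 9 among the autosomes, so narrowed pairs were the more numerous on every one.

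**Figure D5:**
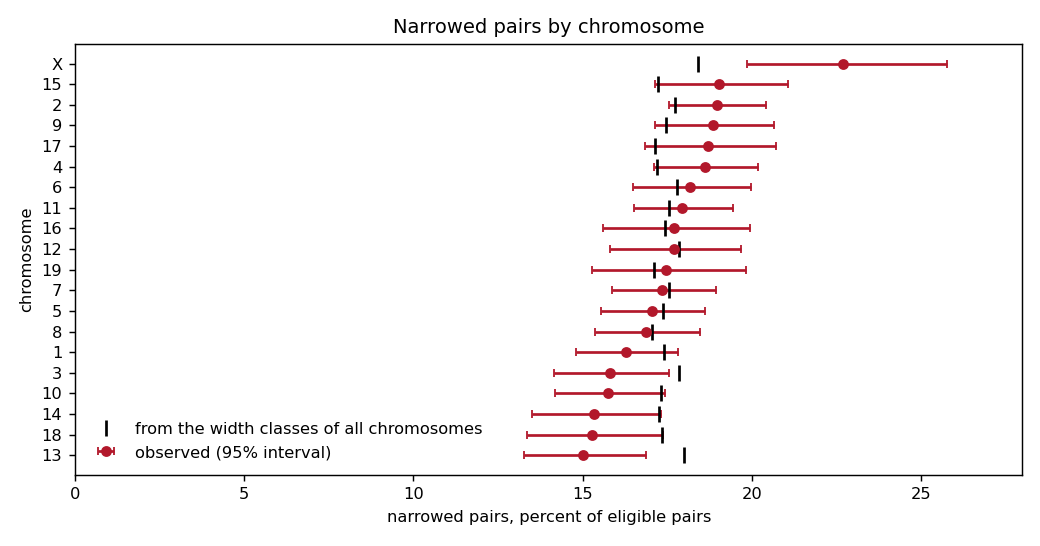
Narrowed pairs as a percent of eligible pairs on each chromosome (points, exact 95% intervals) and the percent that the width classes of all chromosomes would give (vertical marks). X, at 22.7%, and chromosomes 13 and 3 lie away from their marks.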

How the data were processed

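ATAC-seq libraries of 3 control and 3 gTKO samples are represented by 1 peak list per genotype, named in the labels of all libraries of that genotype. The deposited lists hold a sequence name, a start and an end per peak, with no score, summit or p-value. Per the submitters' processing notes the build is mm9 and the tools of the series include Bowtie2, Picard, MACS2 and bedtools. The role of each tool, the calling threshold and any pooling of replicates are not stated in the labels or notes. Read depth is unknown.

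Pairs were found in Python 3.11.15 (numpy 2.4.6, pandas 2.3.3, scipy 1.17.1, matplotlib 3.10.9) from overlaps of at least 1 bp. Pairing was tested on simulated data, a copy of the control list with some peaks shortened and others removed. It held no split, merged or shifted peaks, so those cases were not tested. Intervals are exact 95% Clopper-Pearson intervals. They cover counting error only and treat regions as independent. No p-value is given, because the replicates of a genotype share a list. Named regions are the 10 with the largest width ratio, the 10 with the most trimmed bases, those nearest the ratio limit, the narrowest and widest, and the chromosomes and 1 Mb windows with the highest and lowest shares. The members, comparisons and rules were chosen with earlier results of these data known. Neither sequence nor genes of this build were used here, so start sites, base composition, motifs and marker genes were not examined. The 16 RNA-seq libraries were not analysed here.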

Additional observations from a re-analysis of the deposited data

Results flagged for a closer look

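The rule leaves out the contigs without a place on a chromosome and chromosome Y. Narrowed pairs also occurred on these contigs, while 0 of 6 eligible pairs were narrowed on chromosome Y. On all of these sequences together, 80 of 365 eligible pairs were narrowed (21.9%, 95% interval 17.8 to 26.5%) and 21 were mirrored. Most of them, 49 of 82 pairs (59.8%, 48.3 to 70.4%), were on contigs without any chromosome assigned, where 0 pairs were mirrored. Contigs assigned to chromosome 8 had 6 of 101 pairs narrowed (5.94%) and 7 mirrored. Those of chromosome 1 had 18 of 131 narrowed (13.7%) and 12 mirrored. The pooled share thus rested largely on the unassigned contigs.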

How the results depend on the processing

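Narrowed pairs outnumbered mirrored ones under every alternative run. Their number was 13804 with the ratio limit midway between 1 and 1.5, 2140 at a ratio of at least 2, 3700 after division by the median ratio and 2315 with the narrower region at least 300 bp, against 6539. The number per mirrored pair was then 5.87, 8.99, 1.92 and 17.0, and 6.28 with widths under 1000 bp, against 6.78. Other overlap rules, width limits and sequences kept both values within 1.5 times. One side held at least 75% of trimmed bases in 52.4% of members and all of them in 9.60%, against 23.9% at 90%. The median distance to the nearest region was 3.97 kb in the gTKO list and 14.7 kb to control-only regions, against 2.4 kb in the control list. With control widths of at least 500 bp, the window on chromosome 2 from 175 Mb had 100% narrowed, of only 2 pairs, against 66.7%, and X had 22.3%. No paired analysis was possible because the 3 libraries of a genotype share 1 list, and for that reason no replicate could be left out. Leaving out the 3 windows with the highest shares was chosen after seeing the data and gave 6498 pairs. Comparisons by start site, base composition and motif were not run. The read depth of the lists is unknown.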

Other observations

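Beyond the width limit of the rule, 20 of 468 pairs with control widths of 2000 bp or more also had a ratio of at least 1.5, with control widths from 2009 to 4390 bp. The largest ratio among them was 12.9, on chromosome 17 from 36088013 to 36090101 (2089 bp), where the gTKO peak of 162 bp began 1517 bp into the control peak. On chromosome 2 from 26461419 to 26463952, a control peak of 2534 bp had a gTKO partner of 260 bp near its middle, with 1186 bp trimmed at the start and 1088 bp at the end. The pair on chromosome 18 from 35024658 to 35027993 (3336 and 647 bp) was trimmed by 2397 bp at its start and 292 bp at its end.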
